A study of Homo sapiens with 2 samples.

Results

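The genes described here are 9 haematopoietic cytokines and cytokine receptors, namely the receptor tyrosine kinases KIT, FLT3 and CSF1R, the cytokine receptor chains CSF2RB, CSF3R and EPOR, and the ligands KITLG, IL3 and CSF2. They were chosen by name, as 9 of 20098 protein-coding genes on the autosomes and the X chromosome, and the CpG cytosines from 1500 bp upstream of each annotated transcript start to the gene end were taken as the locus. Of 3168726 CpG cytosines read at least 5 times in both libraries (shared sites), 830 lay in these 9 loci. A methylation level is the share of a site's reads that kept the cytosine, from 0 (unmethylated) to 1.

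Methylation was measured by MCC-Seq, the capture and sequencing of bisulfite-converted DNA, in 2 libraries, 1 per cell line. SKNO-1 is an acute myeloid leukaemia line that carries the RUNX1-RUNX1T1 (AML1-ETO) fusion gene. SKNO1-siAE was made from SKNO-1 by lentiviral delivery (pRRLcPPT.hPGK) of small interfering RNA called siAGF1, whose target is the junction in the AML1-ETO transcript. Both lines grew in RPMI medium with fetal calf serum, penicillin and streptomycin, and the labels name no cytokine in the medium. SKNO1-siAE therefore differed from SKNO-1 by the vector as well as by the small interfering RNA, and these cannot be told apart here. RNA was not analysed here, so neither the loss of the fusion transcript nor the expression of any of the 9 genes was checked. Reads of single CpG cytosines totalled 83620068 in SKNO-1 and 82164216 in SKNO1-siAE, with a median depth at the shared sites of 16 and 15 reads. Without replicates, a test of read counts compares these 2 libraries and not the conditions, and confidence intervals cover counting error only. One read often covered several neighbouring CpGs, so neighbouring sites are not independent.

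Haematopoietic cytokines are secreted or membrane-bound proteins that keep blood progenitors alive and direct their division and maturation. KIT, FLT3 and CSF1R carry their own kinase domain, whereas CSF2RB, CSF3R and EPOR have none and signal through bound Janus kinases to the STAT transcription factors. Dense CpG clusters at a gene's start (CpG islands) are usually free of methylation in cells where the gene is used, and methylation there is commonly found at silent genes.

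The following 5 stretches show the sequence behind the longest differing run of each of these loci. Each is the part of that run with the most shared sites, and not always the part with the largest difference. It is at most 300 bp long and free of exon sequence that is coding in no annotated transcript. Only transcripts of the protein-coding, nonsense-mediated decay and retained-intron types were considered for this. Each is read 5′ to 3′ on the strand of its gene from GRCh37 (hg19), and capitals mark the CpGs that lie whole in the stretch. A CpG cut by the edge stays in lower case, as at the end of the KIT and EPOR stretches and the beginning of the KITLG stretch, although its cytosine inside the stretch is counted among the sites. The KIT stretch (chr4:55524182-55524280, + strand) runs from the first coding bases into the first intron, the FLT3 stretch (chr13:28673674-28673973, − strand) is intronic, and the EPOR stretch (chr19:11493803-11494102, − strand) covers coding and intronic sequence. The KITLG stretch (chr12:88974629-88974836, − strand) and the CSF2 stretch (chr5:131408163-131408462, + strand) lie upstream of their genes.
KIT: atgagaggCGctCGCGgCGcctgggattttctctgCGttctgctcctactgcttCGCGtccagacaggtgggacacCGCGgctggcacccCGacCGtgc
FLT3: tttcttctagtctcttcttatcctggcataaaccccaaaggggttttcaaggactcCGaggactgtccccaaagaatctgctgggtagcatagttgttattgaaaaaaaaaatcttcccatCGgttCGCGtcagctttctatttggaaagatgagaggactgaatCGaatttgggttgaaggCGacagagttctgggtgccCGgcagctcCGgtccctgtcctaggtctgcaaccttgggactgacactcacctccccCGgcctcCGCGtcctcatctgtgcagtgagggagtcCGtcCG
EPOR: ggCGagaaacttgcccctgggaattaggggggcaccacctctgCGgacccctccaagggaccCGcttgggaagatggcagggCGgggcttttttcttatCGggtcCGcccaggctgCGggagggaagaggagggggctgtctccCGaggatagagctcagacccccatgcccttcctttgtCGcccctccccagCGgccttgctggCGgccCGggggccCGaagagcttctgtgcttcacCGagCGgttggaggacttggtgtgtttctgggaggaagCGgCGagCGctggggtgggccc
KITLG: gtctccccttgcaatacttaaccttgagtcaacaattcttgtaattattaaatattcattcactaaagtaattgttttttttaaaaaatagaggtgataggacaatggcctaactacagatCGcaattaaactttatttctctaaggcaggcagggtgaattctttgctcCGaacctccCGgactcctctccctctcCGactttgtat
CSF2: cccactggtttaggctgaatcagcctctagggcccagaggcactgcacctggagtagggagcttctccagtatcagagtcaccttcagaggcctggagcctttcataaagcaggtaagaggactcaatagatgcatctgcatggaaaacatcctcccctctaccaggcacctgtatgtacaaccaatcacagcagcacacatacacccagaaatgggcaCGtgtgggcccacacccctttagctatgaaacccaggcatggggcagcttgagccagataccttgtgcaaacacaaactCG
The shared sites of the KIT stretch averaged 0.000731 in SKNO-1 and 0.464 in SKNO1-siAE (23 sites). In the FLT3 stretch it was 0.0109 and 0.871 (23 sites), in the EPOR stretch 0 and 0.545 (16 sites), and in the KITLG stretch 0.342 and 0.945 (9 sites). The CSF2 stretch had the opposite order, with 0.951 in SKNO-1 and 0.145 in SKNO1-siAE at 4 sites on 2 CpGs. The 300 bp EPOR and FLT3 stretches hold 18 and 13 CpGs, the CSF2 stretch of the same length holds 2, and the KITLG stretch of 208 bp holds 4.

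Across the 9 loci, methylation was lower in SKNO-1 across the starts of KIT and EPOR, on both flanks of the FLT3 start and upstream of KITLG, and it was higher upstream of CSF2, while CSF3R and CSF2RB differed by less than 0.2 in their windows and IL3 was methylated in both. The 830 sites averaged 0.448 in SKNO-1 and 0.563 in SKNO1-siAE, a difference of −0.115 (SKNO-1 minus SKNO1-siAE, as throughout). Over all shared sites the means were 0.587 and 0.655, a difference of −0.0674. Sites were tested singly (2-sided Fisher's exact test, Benjamini-Hochberg over the whole table) and called only where the levels also differed by 0.2 or more. By this rule 147 of the 830 sites (17.7%) were called lower in SKNO-1, against 11.7% of all shared sites. Another 38 (4.58%) were called higher, against 4.41%. KIT (53), FLT3 (42), EPOR (22) and KITLG (21) together held most of the lower calls, and CSF2 (7), KITLG (7), KIT (6) and IL3 (6) most of the higher calls. CSF2RB and CSF3R had no site called lower and 4 and 1 called higher.

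**Figure D1:**
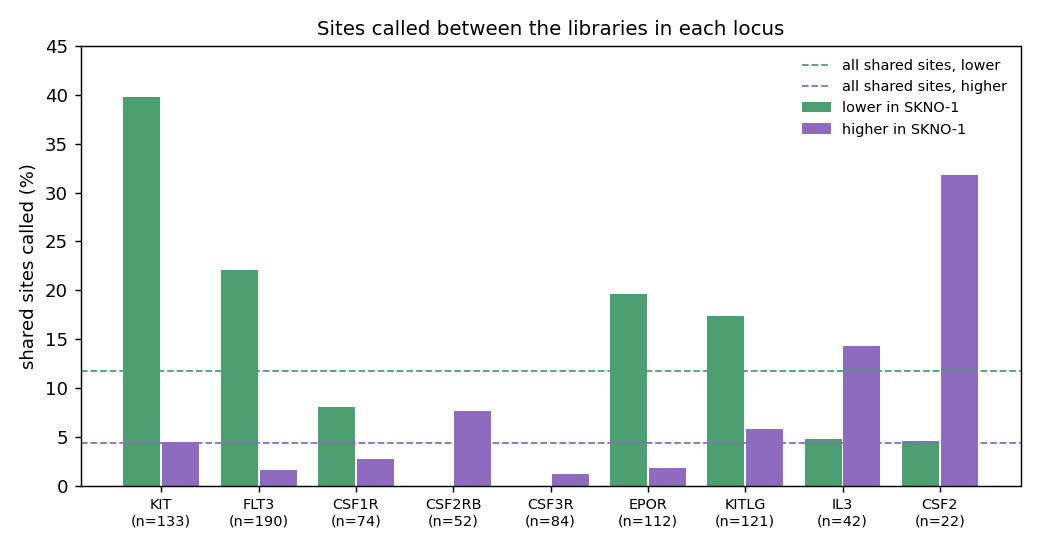
Share of shared sites (percent, vertical axis) called lower (green) or higher (purple) in SKNO-1 in each of the 9 loci, with the number of sites under each name and dashed lines for the share over all shared sites. KIT stands highest among the lower calls (39.8%) and CSF2 among the higher calls (31.8%), and these shares rest on 133 and 22 sites.

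The shared sites were then split by whether they lay in a CpG island. The 362 island sites of the 9 loci, all in KIT, FLT3, EPOR and KITLG, averaged 0.0862 in SKNO-1 and 0.305 in SKNO1-siAE, a difference of −0.219. The island sites of the whole table differed by −0.0676. Of the 362 sites, 98 (27.1%) were called lower and 4 (1.1%) higher, against 10.3% and 3.32% of all island sites. KIT alone held 49 of the 98 lower calls, on 93 of the 362 sites. The 468 sites of the loci outside islands had levels of 0.728 and 0.763, a difference of −0.0345 against −0.0671 for all sites outside islands. Of these, 49 (10.5%) were called lower and 34 (7.26%) higher, against 12.9% and 5.37% of all such sites. CSF1R, CSF2RB, CSF3R, IL3 and CSF2 had no shared site in an island.

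Around the gene starts, an upstream window (the 1500 bp before the start of the main transcript) and a start window (its first 1000 bp) were compared where they held at least 5 shared sites, and a window was said to differ at a mean difference of at least 0.2. Of 8 members with such an upstream window, KIT, EPOR and KITLG were lower in SKNO-1 (3 members), against 15.0% of 17293 protein-coding genes, and CSF2 was higher (1 member), against 3.81%. With the most upstream annotated start, only KITLG remained lower by 0.2, as EPOR came to −0.171 and KIT to 0.103. The median difference was −0.0329 for the members and −0.00808 for all genes. Of 6 members with a start window, KIT, FLT3 and EPOR were lower (3 members), against 13.9% of 15404 genes, and 0 were higher, against 3.74%. The median differences here were −0.263 and −0.000941, but the members' median lies midway between KIT (−0.539) and KITLG (0.0135) and was −0.0119 with at least 10 reads per site. Runs of at least 5 neighbouring sites with a smoothed difference of at least 0.2 were also drawn. The loci held 8 runs lower in SKNO-1 with 201 sites (24.2% of the 830, against 12.4% of all shared sites) and 4 higher with 29 sites (3.49%, against 3.35%).

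KIT, the receptor for stem cell factor, was the locus with the most calls. The 53 sites of its start window averaged 0.00211 in SKNO-1 and 0.541 in SKNO1-siAE, and 52 of them were lower in SKNO-1. Pooling the reads gave 4 methylated of 3813 in SKNO-1 (0.00105, 95% Wilson interval 0.000408 to 0.00269) and 450 of 929 in SKNO1-siAE (0.484, 0.452 to 0.517). SKNO-1 was thus nearly free of methylation there, whereas SKNO1-siAE stood between the extremes. The 35 sites further into the body had levels of 0.699 and 0.701, with 18 lower and 14 higher in SKNO-1. Pooling their reads gave 0.760 (95% Wilson interval 0.747 to 0.773) and 0.860 (0.836 to 0.881).

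The difference at KIT formed one run from −408 to 311 relative to the start of KIT-201 (chr4:55523716-55524434), which covers upstream sequence, the first exon and the start of the first intron. Its 80 sites had levels of 0.0421 and 0.537, 77 of them were lower in SKNO-1, and 49 were called. No shared site lay between those at −351 and −89. From −408 to −351 the sites had levels of 0.431 to 0.935 in SKNO-1 and 6 of 6 reads methylated in SKNO1-siAE, and none was called. Neighbouring sites often had the same counts, so the calls are not independent. On the − strand from 37 to 77, each site had 6 of 25 reads methylated in SKNO1-siAE. Single sites in SKNO1-siAE ranged from 0 to 1, with a median of 0.571, and 21 of the 80 sites lay between 0.3 and 0.7. In 100 bp steps, the levels in SKNO1-siAE were 0.422 just before the start, 0.426 just after it, 0.482 in the next step and 0.854 from 201 to 300 bp, all against 0 to 0.00253 in SKNO-1. The 9 sites of the last of these steps were all on the + strand, whereas the others held both strands, so their levels cannot be read as a gradient. Further upstream, from −500 to −401, both libraries were methylated (0.897 and 1).

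Upstream of this run KIT had a short stretch in the opposite direction. From −944 to −810 the level was 0.944 in SKNO-1 and 0.685 in SKNO1-siAE over 5 sites. The site at −890 had 146 of 152 reads methylated in SKNO-1 and 7 of 30 in SKNO1-siAE (adjusted p = 1.84e-15, Fisher's exact test). The upstream window as a whole differed by −0.237 (0.445 and 0.682, 45 sites), but by only −0.0386 when reads were pooled. With the window moved to the most upstream annotated start, it was higher in SKNO-1, by 0.103.

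In the introns of KIT, 2 further runs differed in opposite directions. From 2992 to 3118 bp after the start, 6 sites had levels of 0.612 in SKNO-1 and 0.987 in SKNO1-siAE. This run held the KIT site with the smallest adjusted p, at 3117, with 115 of 331 methylated reads in SKNO-1 and 78 of 78 in SKNO1-siAE (adjusted p = 1.59e-27, Fisher's exact test). From 51637 to 51933, 9 sites had levels of 0.534 and 0.155, higher in SKNO-1. At 51809, SKNO-1 had 101 of 164 reads methylated and SKNO1-siAE 0 of 28.

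Read depth moved with the library at KIT. The shared sites of the locus had 4.43 times as many reads in SKNO-1 as in SKNO1-siAE (10114 and 2283), against 1.02 over all shared sites, and 5 of 17885 genes had a larger ratio. The 1-Mb bins from 52 to 60 Mb of chromosome 4 had ratios from 3.08 to 3.95, while chromosome 4 as a whole had 1. Of 107 start-window sites listed in SKNO-1 only 53 were listed in SKNO1-siAE. The part of the read ratio in the methylation difference was not tested.

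FLT3, the receptor for FLT3 ligand on early progenitors, differed beside its start and not at it. From 546 to 1040 bp after the start of FLT3-201 (chr13:28673674-28674168, intron), 40 sites had levels of 0.00625 in SKNO-1 and 0.727 in SKNO1-siAE. In reads this was 2 methylated of 521 (0.00384, 95% Wilson interval 0.00105 to 0.0139) against 729 of 944 (0.772, 0.744 to 0.798). Of the 40 sites 39 were lower in SKNO-1 and 33 were called. The site with the smallest adjusted p, at 625, had 0 of 22 and 21 of 21 reads methylated (adjusted p = 8.15e-11, Fisher's exact test).

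On the other flank of the FLT3 start, from −695 to −456, 11 sites had levels of 0.396 and 0.719. The start itself was unmethylated in both libraries. From −400 to 100 the 100 bp means lay between 0 and 0.0260 in SKNO-1 and between 0 and 0.0105 in SKNO1-siAE. No shared site lay between those at 21 and 546. The start window of FLT3 therefore differed by −0.599 (38 sites), and its upstream window, with levels of 0.0636 and 0.114 at 84 sites, by −0.0508. In the other direction, the smallest adjusted p was at −212, with 6 of 11 reads methylated in SKNO-1 and 0 of 26 in SKNO1-siAE (adjusted p = 0.00209, Fisher's exact test). FLT3 had fewer reads in SKNO-1 (ratio 0.585, with 0.722 over chromosome 13), the opposite of KIT.

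CSF1R, the receptor for macrophage colony-stimulating factor, was hardly covered at its main start. The upstream window of CSF1R-210 had no shared site and the start window had 4, with levels of 0.121 and 0.272. Over the 36 sites of the gene body the levels were 0.679 and 0.640, and pooling the reads turned the order (0.548 and 0.627). The only run, 5 sites at chr5:149493034-149493151, lay far upstream of CSF1R-210 but just before the most upstream annotated CSF1R start, in a locus that overlaps PDGFRB, and had 0.735 in SKNO-1 and 1 in SKNO1-siAE. At its site with the smallest adjusted p, SKNO-1 had 9 of 32 reads methylated and SKNO1-siAE 62 of 62 (adjusted p = 7.42e-13, Fisher's exact test). Of the 74 sites of the locus, 6 were called lower and 2 higher. The smallest adjusted p among the higher calls was at 20907 in an intron, with 6 of 6 reads methylated in SKNO-1 and 0 of 6 in SKNO1-siAE (adjusted p = 0.0159, Fisher's exact test).

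EPOR, the erythropoietin receptor, had the largest difference of any member's start window, although with merged strands KIT was further apart (KIT −0.595, EPOR −0.558). In the EPOR start window, 3 sites lay within 17 bp of the start, the others lay from 585 to 971, and none lay between. Its 11 sites averaged 0.0210 in SKNO-1 and 0.752 in SKNO1-siAE, a difference of −0.731. This rested on few reads, with 3 methylated of 123 (0.0244, 95% Wilson interval 0.00833 to 0.0693) and 61 of 84 (0.726, 0.623 to 0.810). From −164 to 17 (chr19:11494974-11495154) all 12 sites were at 0 in SKNO-1 (0 of 154 reads) and averaged 0.611 in SKNO1-siAE. The 5 sites between −20 and 17 had 0 of 13 and 8 of 8 reads methylated each, so their counts were identical. At −41 and −49, in the same run, the counts were 0 of 13 and 0 of 8.

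A second EPOR run, from 591 to 1188 over coding and intronic sequence (chr19:11493803-11494400), had levels of 0.0115 and 0.564 at 20 sites, of which 11 were called. Its site at 1133 had 0 of 15 reads methylated in SKNO-1 and 13 of 13 in SKNO1-siAE (adjusted p = 8.56e-07, Fisher's exact test). EPOR has an island of 3296 bp from 378 to 3673 bp after its start, so the sites at the start lie outside it, and over its 82 sites the levels were 0.0115 and 0.145. The 79 body sites averaged 0.0355 in SKNO-1 and 0.129 in SKNO1-siAE. The 22 sites of the upstream window averaged 0.452 and 0.698, a difference of −0.246. In the other direction, the smallest adjusted p was at 3537, with 17 of 43 reads methylated in SKNO-1 and 0 of 28 in SKNO1-siAE (adjusted p = 0.000573, Fisher's exact test). Every site of both EPOR runs was on the − strand, so none had a second strand to compare with. A part of the locus is shared with the neighbouring gene RGL3.

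**Figure D2:**
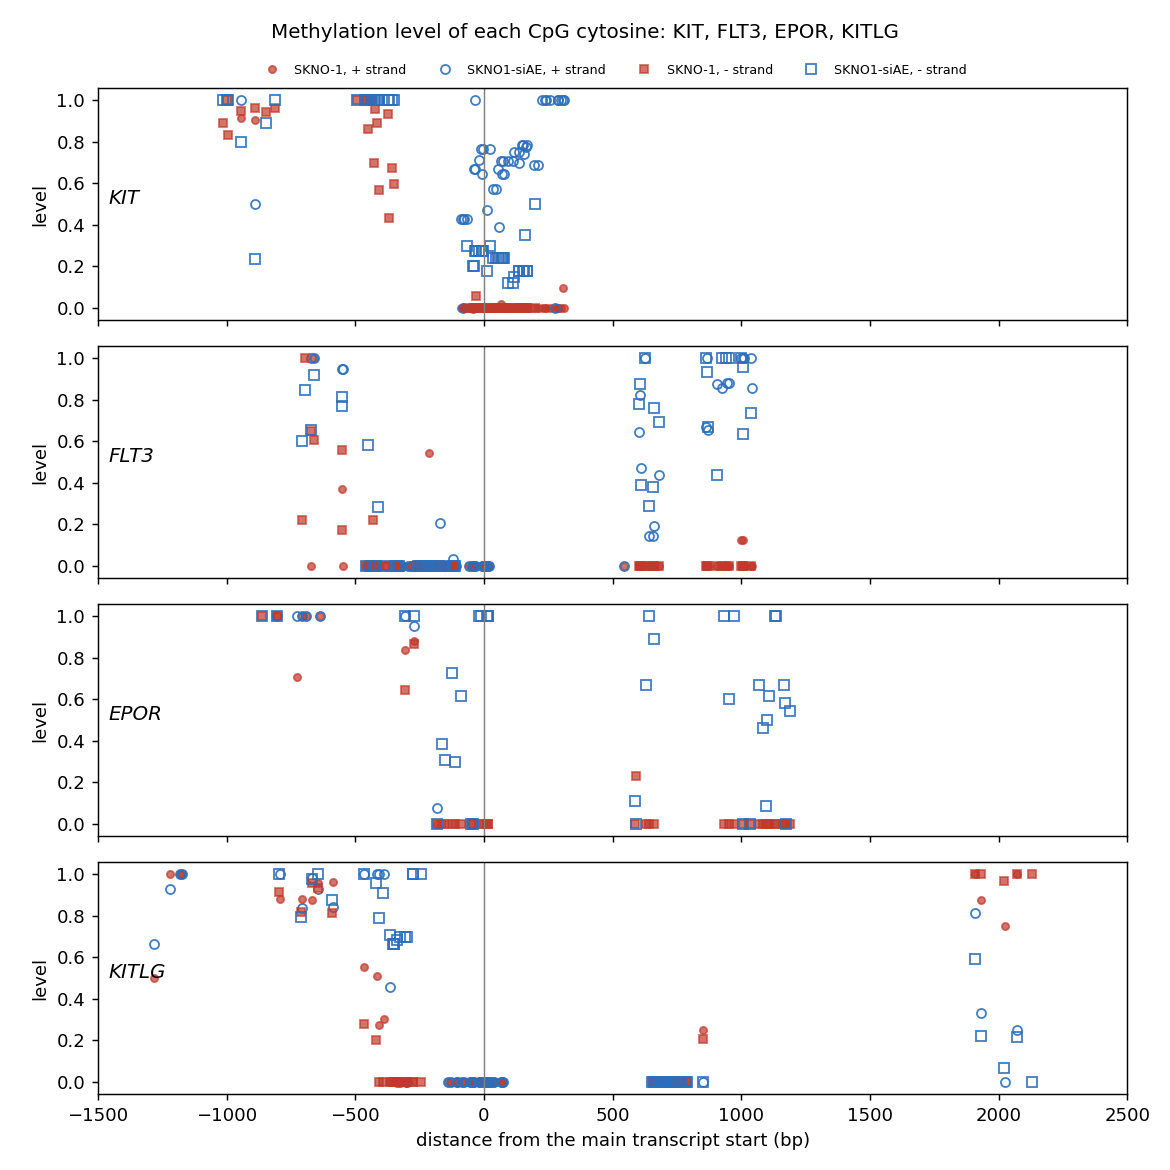
Methylation level (vertical axis, 0 to 1) of each shared CpG cytosine against the distance from the main transcript start (bp) in KIT, FLT3, EPOR and KITLG, with SKNO-1 filled red and SKNO1-siAE open blue, circles for the + strand and squares for the − strand. Red points lie near 0 around all 4 starts, and blue points lie higher across the start of KIT and EPOR, on both flanks of FLT3 and upstream of KITLG.

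CSF3R, the receptor for granulocyte colony-stimulating factor, was unmethylated at its start in both libraries. The 20 sites of its start window averaged 0.0560 in SKNO-1 and 0.0214 in SKNO1-siAE, and the 43 body sites 0.956 and 0.954. In the upstream window the 21 sites averaged 0.598 and 0.613, and pooling their reads turned the order (0.834 and 0.725). A single CSF3R site was called, at 12772 in an intron, with 48 of 49 and 9 of 15 reads methylated (adjusted p = 0.00384, Fisher's exact test). Both libraries thus had the same profile of a methylated far upstream part, an unmethylated start and a methylated body.

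CSF2RB encodes the signalling chain shared by the receptors for IL3, IL5 and GM-CSF. Its 2 start-window sites were at 0 in both libraries (0 of 28 and 0 of 20 reads), which allows levels of up to 0.121 and 0.161 by the 95% Wilson interval. The 21 upstream sites averaged 0.720 in SKNO-1 and 0.642 in SKNO1-siAE, and pooling their reads turned the order (0.687 and 0.739). Within 500 bp on each side of the start the difference was 0.173. The 2 upstream sites called lay close to the start. At −343 the counts were 7 of 7 methylated in SKNO-1 and 0 of 10 in SKNO1-siAE, and at −183 they were 10 of 23 and 0 of 22. The smallest adjusted p of CSF2RB was in an untranslated exon at 25786, with 23 of 23 and 13 of 29 reads methylated (adjusted p = 0.00013, Fisher's exact test).

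KITLG encodes stem cell factor, the ligand of KIT. Upstream of its start, from −588 to −127 (chr12:88974375-88974836), 27 sites had levels of 0.114 in SKNO-1 and 0.647 in SKNO1-siAE. In reads this was 191 methylated of 763 (0.250, 95% Wilson interval 0.221 to 0.282) against 364 of 498 (0.731, 0.690 to 0.768), and 20 of the sites were called lower. The difference was sharpest from −300 to −201, at 0 and 0.740, and from −500 to −401, at 0.302 and 0.958. At −408, SKNO-1 had 17 of 62 reads methylated and SKNO1-siAE 28 of 28 (adjusted p = 9.64e-10, Fisher's exact test). The whole upstream window, with 52 sites, averaged 0.281 and 0.566, a difference of −0.285. From −200 on, past the start, levels were at 0 in both libraries up to 100 bp, and the 34 sites of the start window averaged 0.0135 and 0. Measured from the most upstream annotated start of KITLG, the start window differed by −0.218.

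The first kilobases of KITLG also held the largest difference among the 4 runs higher in SKNO-1. At 1906 to 2130 bp after the start of KITLG-205 (chr12:88972119-88972343, intron), 9 sites averaged 0.955 in SKNO-1 and 0.276 in SKNO1-siAE, and all 9 were higher in SKNO-1. At 2022, SKNO-1 had 62 of 64 reads methylated and SKNO1-siAE 3 of 46 (adjusted p = 1.13e-21, Fisher's exact test). The read ratio of KITLG, 1.14, was near that of all shared sites.

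IL3, the cytokine interleukin-3 of early myeloid progenitors, was methylated in both libraries. The 26 upstream sites averaged 0.920 in SKNO-1 and 0.877 in SKNO1-siAE, and the 14 start sites 0.922 and 0.844. The calls were scattered. At −727 the counts were 27 of 27 and 6 of 12 (adjusted p = 0.00284, Fisher's exact test), and at 2499, in an untranslated exon, they were 9 of 27 and 16 of 16 in the opposite order (adjusted p = 0.000176, Fisher's exact test).

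CSF2 encodes GM-CSF, the factor on which SKNO-1 was first established in culture, and lies close to IL3 on chromosome 5. Its upstream window was higher in SKNO-1, with 0.819 against 0.535 over 14 sites and 297 of 359 (0.827) against 98 of 206 (0.476) reads methylated. A run of 6 sites from −1333 to −1020 had levels of 0.967 and 0.430. The difference lay mainly at 2 CpGs about 1 kb upstream, the ones in capitals in the sequence above. At −1100 and −1099, the 2 strands of the first, the counts were 31 of 35 and 55 of 60 in SKNO-1 against 0 of 16 and 8 of 23 in SKNO1-siAE. At −1021 and −1020 they were 30 of 30 and 62 of 62 against 0 of 20 and 6 of 26, the last with the smallest adjusted p of the gene (9.62e-13, Fisher's exact test).

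Closer to the CSF2 start the direction varied between sites. At −208, SKNO-1 had 18 of 18 reads methylated and SKNO1-siAE 1 of 10, and at −193 the counts were 7 of 20 and 7 of 7 (adjusted p = 0.037, Fisher's exact test). The 2 sites of the start window were both higher in SKNO-1, with means of 0.786 and 0.150 on 25 and 17 reads. At the last exon, 4 sites were fully methylated in both libraries. Counting the sites that each library covered on its own, rather than the shared ones, gave an upstream difference of 0.199, just under the limit of 0.2. Both neighbours had more reads in SKNO-1, with ratios of 1.67 for IL3 and 1.98 for CSF2 against 1.27 over chromosome 5, and the part of this in the difference was not tested.

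**Figure D3:**
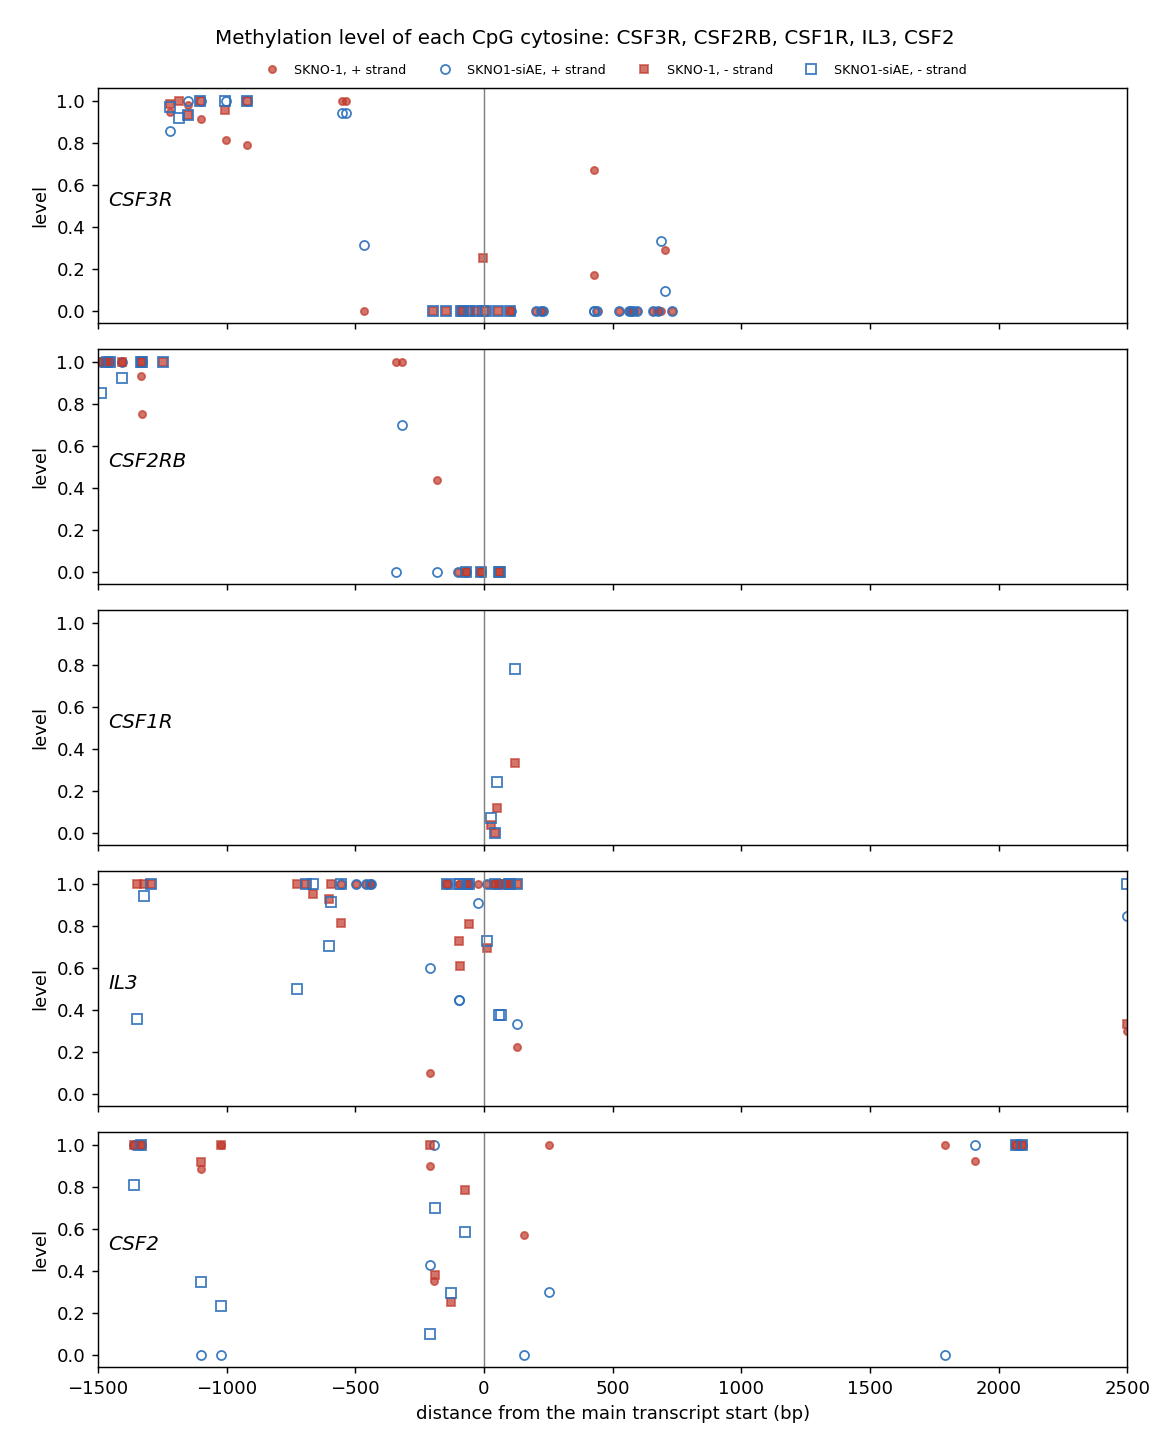
Methylation level (vertical axis, 0 to 1) of each shared CpG cytosine against the distance from the main transcript start (bp) in CSF3R, CSF2RB, CSF1R, IL3 and CSF2, with SKNO-1 filled red and SKNO1-siAE open blue, circles for the + strand and squares for the − strand. Most CSF3R points around its start lie at 0 in both libraries and most IL3 points at 1, with single sites apart in each, and in CSF2 the red points about 1 kb upstream lie above 0.8 and the blue ones below 0.4.

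Because each strand of a CpG was counted on its own, the levels of the same CpG on both strands could be compared. In the KIT run around the start, 30 CpGs were read on both strands in both libraries. In SKNO1-siAE they averaged 0.665 on the + strand and 0.234 on the − strand, and in SKNO-1 it was 0.00056 and 0.00185. The difference between the libraries was therefore −0.664 on one strand and −0.233 on the other. In the FLT3 run the 19 CpGs read on both strands gave 0.712 and 0.765 in SKNO1-siAE, with differences of −0.699 and −0.765 from SKNO-1. In the upstream KITLG run the 10 such CpGs gave 0.530 and 0.803 in SKNO1-siAE, with differences of −0.27 and −0.674 from SKNO-1. Over all 244 such CpGs of the 9 loci, the mean absolute difference between the strands was 0.0584 in SKNO-1 and 0.147 in SKNO1-siAE. The upstream FLT3 run, with 5 such CpGs, differed by −0.506 on the + strand and −0.235 on the − strand. The size of the mean difference thus varied with the strand in the KIT run, the upstream KITLG run and the upstream FLT3 run. Its direction was the same on both strands in these runs, but not every CpG differed on both. At −298, −304, −327 and −337 of KITLG, the + strand was at 0 in both libraries. The − strand of these CpGs was at 0 in SKNO-1 and at 0.684 to 0.7 in SKNO1-siAE.

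**Figure D4:**
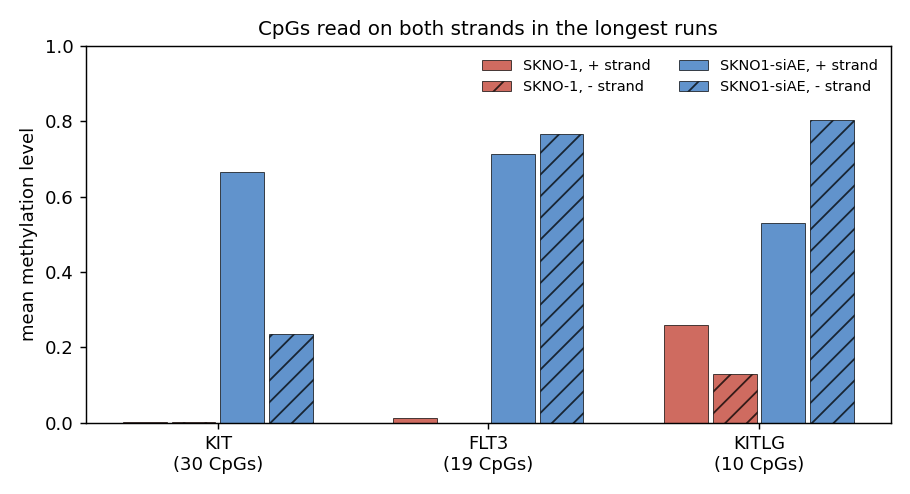
Mean methylation level (vertical axis, 0 to 1) of the CpGs read on both strands in the longest runs of KIT, FLT3 and KITLG, with SKNO-1 in red, SKNO1-siAE in blue, plain bars for the + strand and hatched bars for the − strand. The blue bars of KIT stand at 0.665 and 0.234, whereas those of FLT3 stand at 0.712 and 0.765.

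RUNX proteins, of which the fusion keeps the DNA-binding part, bind a core written here as TGTGGT or TGCGGT. Either string, on either strand, was found in the 300 bp before the start of 4 members, FLT3 (at −48), CSF2 (at −58), CSF1R (at −71) and IL3 (at −140), and of 3686 of the 20098 protein-coding genes (18.3%). KIT, KITLG, EPOR, CSF2RB and CSF3R had no match of these letters in that stretch. These are matches of letters and not measured binding. The same 300 bp held 36 CpGs in KIT, 33 in FLT3 and 29 in KITLG, 11 in EPOR, and between 2 and 8 in the other members.

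Among 50 other listed genes of the same system (15 cytokines, 17 receptors and 18 signalling genes), 7 of 46 with an upstream value were lower in SKNO-1 by at least 0.2 and 1 was higher, and 11 of 37 with a start value were lower and 1 was higher. Over all protein-coding genes these shares were 15.0% and 3.81% upstream and 13.9% and 3.74% at the start, so the upstream count was near the background. Their median differences were −0.0301 and −0.0155. CSF1, the ligand of CSF1R, had levels of 0.0485 in SKNO-1 and 0.819 in SKNO1-siAE at its start and 0.174 and 0.766 upstream. JAK3, a Janus kinase of the interleukin receptors, had 0 and 0.934 at its start. IL5RA, the interleukin-5 chain that pairs with CSF2RB, was the start window higher in SKNO-1, with 0.557 and 0.0820. PTPN6, a phosphatase that damps cytokine signalling, was the upstream window higher in SKNO-1, with 0.345 and 0.0462. The other partners of CSF2RB, CSF2RA and IL3RA, had no shared site.

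The remaining genes of the list past 0.2 were all lower in SKNO-1. Upstream they were PDGFRA (0.273 and 0.752), a kinase gene next to KIT, PIM1 (0.00586 and 0.474), a kinase gene induced by STAT5, LYN (0.234 and 0.611), CISH (0 and 0.287), a STAT5-induced inhibitor, JAK3 (0.185 and 0.720) and IL34 (0.461 and 0.667), the second ligand of CSF1R. At the start they were LIFR (0.549 and 1), STAT5A (0.0312 and 0.356), TIE1 (0.378 and 0.701), SOCS2 (0.701 and 0.994), PDGFRB (0.423 and 0.711), IL6 (0.288 and 0.575), TEK (0.720 and 1), PIM1 (0 and 0.250) and SOCS3 (0.479 and 0.711). JAK2, the kinase that binds EPOR and CSF2RB, was at 0 in both libraries at its start. STAT5B, TYK2, CBL and GRB2 had start levels below 0.02 in both.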

How the data were processed

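DNA of 1 SKNO-1 and 1 SKNO1-siAE culture was bisulfite-converted, captured and sequenced as paired 125-bp reads. The submitters' processing notes name cutadapt 1.4.2, BSMAP 2.73 and the build hg19. The authors deposited, for each CpG cytosine and strand, the counts of methylated and unmethylated reads, without normalization and with at least 5 reads per listed site. Whether PCR duplicates were removed is not given in the sources used here, and reads carry no molecular identifiers. From these counts, site levels were computed at the 3168726 sites listed in both libraries. Gene models were those of GENCODE 44 lifted to GRCh37, the assembly from which sequences were read. Sites were tested with a 2-sided Fisher's exact test (Benjamini-Hochberg over the whole table), and a call needed an adjusted p under 0.05 together with levels 0.2 or more apart. Window means were given with pooled reads and 95% Wilson intervals. Runs were at least 5 sites, at most 300 bp apart, with the difference smoothed over 5 sites. Islands were 500 bp windows, merged where they overlap, with at least 55% G and C and a CpG ratio of at least 0.65. Calling was tested on simulated data.

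The members and gene lists were chosen with earlier results of these data known. All members were named with their upstream and start windows, up to 3 runs per direction and the site with the smallest adjusted p in each direction, and listed genes where a window differed by 0.2. Further single sites, bins and levels of listed genes were picked with their values in view. The alternatives were other read minima, merged strands, pooled reads, own sites, other windows and starts, and stricter limits. The analysis used python 3.11.15, numpy 2.4.6, pandas 2.3.3, scipy 1.17.1, numba 0.67.0 and matplotlib 3.10.9.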

Additional observations from a re-analysis of the deposited data

How the results depend on the processing

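With 1 library per cell line, no spread between cultures could be measured, and a site with 5 reads has a wide counting interval. No paired analysis was possible because each group held 1 library. Of 130 alternative values, 89 stayed within the counting error of the value reported (for counts, within 1.5 times), and the others did not. Among windows that differed by 0.2, 1 value changed sign, the KIT upstream difference, which was 0.103 with the most upstream annotated start instead of −0.237. Smaller differences changed sign as well. With pooled reads, CSF2RB upstream was −0.052 and CSF3R upstream 0.109. With at least 10 reads, the CSF3R start was −0.0119 and the IL3 start −0.005. The KITLG start was −0.218 with the most upstream start, which made 4 members lower at the start instead of 3. With 500 bp on each side of the start, CSF3R was 0.0428 and the members' median 0.0137, and with the sites of each library CSF3R upstream was 0.00663. Of 38 alternatives of windows that differed by 0.2, 34 stayed at 0.2 or more in the same direction. With at least 10 reads per site, 24 sites were called higher (38 in the report), 2 runs were higher (4 in the report), and the median start difference was −0.0119 instead of −0.263, where EPOR had too few sites for a value. With the sites of each library, the median start difference was −0.222, and 0 members were higher upstream instead of 1. With the most upstream annotated start, it was −0.332, and 1 member was lower upstream instead of 3. Bonferroni adjustment left 9 sites called higher and 43 lower (147 in the report). Merging the strands left 2 runs higher, and a difference of 0.4 left 1. The causes of these changes were not tested, except that the stricter limits test or pass fewer sites by construction.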

Other observations

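The read ratios of the listed genes on chromosome 5 differed between its parts. IL5, IL4 and IL13, the neighbours of IL3 and CSF2, had 2.14, 2.16 and 1.64 times as many reads in SKNO-1 as in SKNO1-siAE, beside 1.67 for IL3 and 1.98 for CSF2. Elsewhere on the chromosome IL7R had 2.07, TSLP 1.80, OSMR 1.60, IL6ST 1.59 and LIFR 1.19, and the whole chromosome had 1.27. The ratios of IL7R and IL4 rested on only 12 and 17 shared sites. CSF1R and PDGFRB, further along the same chromosome, had 0.994 and 0.833. On chromosome 4, KDR, a receptor gene near KIT, had a ratio of 3.77, and its start window was methylated in both libraries, at 0.980 and 0.921 over 94 sites. The upstream windows of IL5, IL4 and IL13 differed by 0.0371, 0.00413 and −0.0217.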
